A study of Mus musculus with 27 samples.

Results

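The question addressed here was in which genes the liver of male and of female offspring answered differently to the maternal diet. The quantity is the change by maternal diet in males minus that in females, (m-WS - m-LF) - (f-WS - f-LF), taken per gene on the log2 scale over all 27 arrays and called the difference in response below. It was read for every autosomal gene that passed the filters on low and invariant genes, which left 10458 autosomal genes of 10810 genes tested. Beyond these filters no measured value chose the genes. All pups were C57BL/6J mice of 2 weeks of age, and liver RNA of each was hybridised to 1 Affymetrix Mouse Gene ST array. The m-LF group (6 males) and the f-LF group (9 females) were offspring of dams on LFD, a low fat diet in which fat gave 10% of the energy, with 3.85 kcal per g and 18.0 mg of cholesterol per kg. The m-WS group (6 males) and the f-WS group (6 females) were offspring of dams on WSD, a Western-style diet in which fat gave 45% of the energy, with 4.73 kcal per g and 196.5 mg of cholesterol per kg. Both diets were given from 6 weeks before mating until the end of the experiment, in lactation, with sires on control diet and litters set to 5 to 7 pups, so that the pups themselves had been exposed in the womb and through the milk. Several pups are likely to share a dam, though the number of dams is not given. The p-values measure the spread between the pups, not between dams.

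The pup is exposed to a maternal diet through the placenta and then through milk, which is rich in fat and poor in starch, and most liver enzymes are set to that supply until weaning. Liver cells also differ along the lobule: those around the portal vein make urea and glucose, whereas those around the central vein are kept in their state by Wnt signals from the neighbouring endothelium and capture ammonia as glutamine. The large sex differences of the adult mouse liver, which follow the pulses of growth hormone, arise at puberty, so that the liver at this age has few of them.

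Several values need to be known before the results. Xist, the noncoding RNA of the inactive X chromosome, is expected in females, but 2 males carried it: m-LF6 was at 9.30 and m-WS1 at 7.92 on the log2 scale, against 3.25 to 4.50 in the other 10 males and at least 11.67 in the 15 females. Main results are therefore also given without these males. The array names hold a number that no label defines. The numbers 37, 49 and 50 occur with LFD and 39, 40 and 48 with WSD, and 5 of them hold both sexes (39 has females only). Whether a number stands for a dam, a litter or a day is unknown, and the labels do not tie pups to dams. As males and females can be set against each other within a number, the difference in response was also estimated with the number as a fixed block. The 8 markers of hepatocytes on the array of 10 listed lay between 11.26 and 13.29 on the log2 scale, at or above the 98.5th percentile of the genes. In whole liver, fewer cells of a type and less RNA per cell cannot be told apart.

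Of the 10458 autosomal genes, 262 (2.51%) differed in response at p 0.01 in limma, the threshold of the study. In 124 of them (1.19%) the change was more positive in males and in 138 (1.32%) more negative. At p 0.05 the count was 1030 (9.85%). After adjustment by Benjamini and Hochberg over all genes no autosomal gene passed 0.05; the smallest adjusted p was 0.182, shared by Pklr, Lacc1, C2 and Cyp3a44. Each gene named below thus stands at an unadjusted p: "differed", "rose" and "fell" mean an unadjusted limma p of at most 0.01, and the p-values printed are adjusted over all genes. Without m-LF6 and m-WS1 the count was 354, with 138 more positive and 216 more negative, and 217 of the 262 (82.8%) were among them. With the number as a fixed block it was 282, of which 130 were among the 262 (49.6%). All 262 kept their sign in both.

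The differences were small for most genes. They ran from -1.90 to 2.14, with a median of -0.01, and the median SE was 0.10. For 9228 genes (88.2%) the 95% interval of the difference lay between -0.5 and 0.5. Among the 262 genes that differed, the median size was 0.33, with 9 genes of at least 1 and 112 under 0.3. The 3 genes just inside the threshold were Tsc22d1, Mvd and Gpr146 (differences of -0.34, -0.46 and 0.37), and the 3 just outside were Wdr66, Art4 and Hsd17b7 (0.31, 0.23 and -0.51).

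The direction of the change was opposite in the 2 sexes for 241 of the 262 genes (92.0%), against 43.8% of all autosomal genes. The change was larger in males for 182 of them (69.5%), against 52.3% of all. By diet alone, 592 genes changed in males at p 0.01 (5.66%), of which 316 rose (3.02%) and 276 fell (2.64%), and 544 in females (5.20%), of which 374 rose (3.58%) and 170 fell (1.63%). Of the 541 genes that changed in males only, 121 (22.4%) also differed in response, and of the 493 that changed in females only, 50 (10.1%) did. None of the 44 genes that changed the same way in both sexes differed, whereas all 7 that changed in opposite directions did. The remaining 84 differing genes passed in neither sex. Opposite changes that each pass p 0.01 give a difference that passes as well, so the result for the 7 genes was fixed in advance. The other shares follow in large part from the same values as the difference itself. All are given as a description.

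On maternal LFD, 28 of the 262 genes differed between males and females at p 0.01 (137 of all autosomal genes, 1.31%), and on maternal WSD 118 did (343 of all, 3.28%). In 250 of the 262 the sex difference had opposite signs on LFD and WSD. The share of opposite signs over all autosomal genes was not taken. These comparisons share samples with the difference in response, which equals the sex difference on WSD minus that on LFD. The counts thus follow in large part from the choice of the 262 genes and are given as a description.

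**Figure D1:**
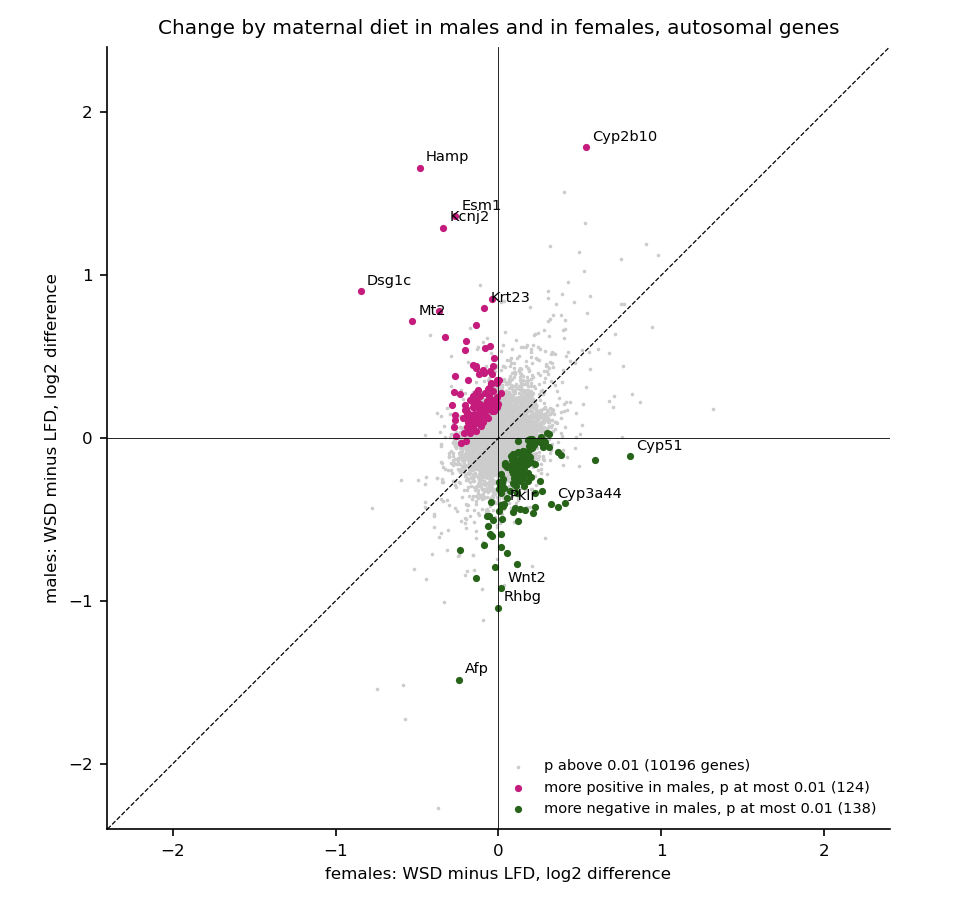
Change by maternal diet (WSD minus LFD, log2) in males on the vertical axis against that in females on the horizontal axis, 1 point per autosomal gene, with the line of equal change dashed. The genes that differed at p 0.01 lie off the dashed line, 124 above it and 138 below it, and most of them in the quadrants where the 2 sexes moved in opposite directions.

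The smallest p belonged to Pklr, the pyruvate kinase of liver and red cells, which makes the last step of glycolysis and is a classical sugar-induced gene. Its log2 level lay between 9.96 and 10.16 (median 10.12) in m-LF and between 9.51 and 9.78 (median 9.72) in m-WS. In f-LF it lay between 9.84 and 10.20 (median 10.05) and in f-WS between 9.90 and 10.30 (median 10.05). The males of WSD dams were below all other pups, and the other groups overlapped. Pklr fell in males by 0.42 on the log2 scale (SE 0.07) and moved by 0.03 in females (SE 0.06, limma adjusted p = 0.893), a difference of -0.45 (SE 0.09, limma adjusted p = 0.182). With the number as a fixed block it was -0.41 (past p 0.01). The bases before the downstream one of the 2 Pklr starts in the table are shown with a carbohydrate response element (CACGGG, then NNNNN, then CCCGTG, which reads the same on both strands) in capitals. RefSeq gives them on GRCm38.p6 at chr3:89136373-89136622, plus strand.
Pklr: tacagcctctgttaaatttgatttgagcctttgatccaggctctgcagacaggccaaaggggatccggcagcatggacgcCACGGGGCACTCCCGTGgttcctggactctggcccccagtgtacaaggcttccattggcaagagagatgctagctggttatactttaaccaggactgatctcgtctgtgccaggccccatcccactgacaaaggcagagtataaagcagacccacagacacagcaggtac
The motif begins 170 bases before the start. It was found in 1 of the 32851 windows of 250 bases before a start (0.00304%), that of Pklr, and a match is a description of the letters. The letters searched are those of the Pklr site itself with its middle bases left open. The rarity thus follows from the choice of pattern, and looser forms of the element in other genes were not searched.

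Other sugar-responsive genes were mixed. Of the 22 tested members of the list for glycolysis, gluconeogenesis and sugar-responsive genes, 3 differed with a more negative change in males (Pklr, Tkfc and Arrdc4) and 2 with a more positive one (Pdk2 and Mlxipl). Of all autosomal genes 1.32% and 1.19% did. The median difference of the list was -0.10, against -0.01 for all genes. Tkfc, which phosphorylates glyceraldehyde from fructose, lay at 10.43 to 10.69 (median 10.55) in m-LF and at 10.16 to 10.31 (median 10.22) in m-WS, which do not overlap, and at 10.18 to 10.70 in f-LF and 10.30 to 10.79 in f-WS, which do. Its difference was -0.35 (SE 0.10, limma adjusted p = 0.366). Arrdc4, an arrestin-like gene induced by glucose, differed by -0.37 (SE 0.13, limma adjusted p = 0.391). Mlxipl itself, which encodes the factor ChREBP that binds the element shown, fell in females by 0.20 and moved by -0.02 in males, a difference of 0.18 (SE 0.06, limma adjusted p = 0.391). Its partner Mlx had a difference of 0.00 (limma adjusted p = 0.995). Pdk2, a kinase that holds back pyruvate oxidation, differed by 0.37 (SE 0.11, limma adjusted p = 0.366).

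Cyp3a44 and Cyp3a16 encode similar enzymes of drug and steroid metabolism. Cyp3a44 lay between 10.03 and 10.64 (median 10.24) in m-LF and between 9.65 and 10.00 (median 9.86) in m-WS, whereas it lay between 9.58 and 10.38 (median 10.17) in f-LF and between 10.16 and 10.74 (median 10.39) in f-WS. No pup of m-WS reached a pup of f-WS or m-LF. Cyp3a44 fell by 0.40 in males and rose by 0.32 in females (SE 0.11 and 0.10), a difference of -0.72 (SE 0.16, limma adjusted p = 0.182; fixed block -0.69, past p 0.01). Cyp3a16 differed by -0.56 (SE 0.15, limma adjusted p = 0.355). Their promoters are alike, so the pair is shown aligned, with the letters that differ in capitals; 236 of 246 aligned bases (95.9%) were identical, and 10 differed. RefSeq places them on GRCm38.p6, minus strand, at chr5:145805875-145806124 and chr5:145469724-145469973. Probe sets of such near-identical genes may share signal, so the levels of Cyp3a44 and Cyp3a16 are uncertain as separate genes.
Cyp3a44: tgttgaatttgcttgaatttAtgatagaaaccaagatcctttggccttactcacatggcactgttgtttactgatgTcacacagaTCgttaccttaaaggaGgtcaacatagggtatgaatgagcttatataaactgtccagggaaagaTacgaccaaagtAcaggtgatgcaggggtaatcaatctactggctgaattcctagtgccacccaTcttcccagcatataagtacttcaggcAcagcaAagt
Cyp3a16: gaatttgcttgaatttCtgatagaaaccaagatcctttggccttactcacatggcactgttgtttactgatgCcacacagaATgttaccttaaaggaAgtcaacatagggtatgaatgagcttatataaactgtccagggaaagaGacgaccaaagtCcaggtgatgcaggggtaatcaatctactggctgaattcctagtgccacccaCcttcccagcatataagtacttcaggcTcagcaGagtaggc

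Both genes also belong to the list of genes that are higher in the adult female liver, of which 26 were tested. On this list 5 differed with a more negative change in males (1.32% of all autosomal genes did): Cyp3a44, Cyp3a16, the fatty acyl thioesterases Acot3 and Acot4 (-0.80 and -0.45), and Prom1 (-0.34). The other probe set of Prom1 had a difference of 0.01, so this gene is uncertain. Acot3 (-0.49) and Acot4 (-0.37) did not pass p 0.01 with the number as a fixed block. The list as a whole had a median of -0.09. The 1 gene of this list with a more positive change in males was Cyp2b10, a target of the drug sensor CAR. It lay between 5.77 and 7.93 (median 6.08) in m-LF, between 7.71 and 8.53 (median 8.18) in m-WS, between 6.63 and 7.76 (median 6.94) in f-LF and between 6.69 and 9.0 (median 7.18) in f-WS. The highest m-LF pup was m-LF6. The difference was 1.25 (SE 0.42, limma adjusted p = 0.386; 1.54, past p 0.01, without m-LF6 and m-WS1; 0.89, not past p 0.01, with the number as a fixed block), with a rise of 1.78 in males and a change of 0.54 in females (limma adjusted p = 0.39). Of the 21 tested genes that are higher in the adult male liver, Ugt2b38 differed (-0.28), with a rise of 0.31 in females. Over all autosomal genes 2.51% differed.

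Of 21 tested members of the cholesterol synthesis list, 11 rose in females (3.58% of all autosomal genes rose) and 1 in males (3.02% of all), and none fell in either sex. The median change was 0.04 in males and 0.32 in females, and the median difference was -0.27 (-0.01 for all genes). Of the 21, 16 were below 0 (52.6% of all autosomal genes were). At p 0.01, 2 of them differed, Cyp51 and Mvd, and 9 of 21 passed p 0.05, each with a more negative change in males (5.42% of all autosomal genes). Cyp51, the sterol demethylase, lay between 6.74 and 8.24 (median 7.42) in m-LF, 7.02 and 7.69 (median 7.24) in m-WS, 6.21 and 7.40 (median 6.87) in f-LF and 6.93 and 8.60 (median 7.39) in f-WS. All 4 groups overlapped. Its difference was -0.92 (SE 0.33, limma adjusted p = 0.393; fixed block -1.05, past p 0.01). Sqle, squalene epoxidase, had the largest estimate of the list, -1.14 (SE 0.49, limma adjusted p = 0.434). With the number as a fixed block 7 members passed p 0.01, and without m-LF6 and m-WS1, 5 did. Without the pups of number 40 none did, and repeating the quantile normalization left none as well. Lipa, the lysosomal lipase that frees cholesterol from its esters, rose by 0.22 in females (range 11.02 to 11.16 in f-LF and 11.21 to 11.40 in f-WS, which do not overlap) and moved by -0.03 in males, a difference of -0.24 (SE 0.06, limma adjusted p = 0.316).

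Abcg5 and Abcg8 together form the sterol export pump of the canalicular membrane. Of 20 tested members of the list for sterol efflux, bile acid synthesis and transport they were the 2 that differed, both more positive in males. The median of this list was 0.02. Among all autosomal genes 1.19% differed with a more positive change in males. Abcg8 lay between 10.00 and 10.39 (median 10.18) in m-LF, 10.34 and 10.60 (median 10.44) in m-WS, 10.12 and 10.73 (median 10.41) in f-LF and 9.97 and 10.47 (median 10.06) in f-WS. The groups overlapped in each sex. Abcg8 rose by 0.27 in males and fell by 0.24 in females, a difference of 0.51 (SE 0.12, limma adjusted p = 0.315; fixed block 0.38, past p 0.01). Abcg5 rose by 0.40 in males and moved by -0.09 in females (limma adjusted p = 0.763), a difference of 0.49 (SE 0.16, limma adjusted p = 0.377). For Abcg5 the fixed block gave 0.31 (not past p 0.01). The 2 genes start head to head with 109 bases between their starts, which are shown on the plus strand (RefSeq, GRCm38.p6, chr17:84683012-84683120) with GATAA, the core of GATA sites, on either strand in capitals.
Abcg5-Abcg8: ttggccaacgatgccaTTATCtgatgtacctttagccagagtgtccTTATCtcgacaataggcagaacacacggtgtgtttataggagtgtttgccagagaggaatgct
Of all windows of 109 bases before a start, 0.788% hold at least 2 such matches.

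Of the 23 tested pericentral beta-catenin targets, 5 differed, all more negative in males (1.32% of all autosomal genes did): Slc1a4, Slc13a3, Glul, Rhbg and Znrf3. The median difference was -0.30 (-0.01 for all genes), with 20 of 23 below 0 (52.6% of all autosomal genes were). The medians by sex were -0.26 in males and 0.01 in females. Glul, the glutamine synthetase that marks the cells nearest the central vein, lay between 11.18 and 11.64 (median 11.62) in m-LF and between 10.63 and 11.03 (median 10.83) in m-WS, which do not overlap. In f-LF it lay between 10.82 and 11.82 (median 11.60) and in f-WS between 10.99 and 11.84 (median 11.54). It fell by 0.67 in males and moved by 0.01 in females (limma adjusted p = 0.979), a difference of -0.68 (SE 0.21, limma adjusted p = 0.366), in both of its probe sets. The fixed block gave -0.55, not past p 0.01. Rhbg, an ammonium transporter of the same cells, differed by -1.04 (SE 0.34, limma adjusted p = 0.366), Slc13a3, a carrier of dicarboxylates, by -0.56 (limma adjusted p = 0.366), Slc1a4, a carrier of neutral amino acids, by -0.53 (limma adjusted p = 0.316) and Znrf3, which removes Wnt receptors, by -0.30 (limma adjusted p = 0.393). The stem cell receptor Lgr5 had -0.53 (limma adjusted p = 0.453), which did not pass p 0.01. Of the 23 genes, 10 fell in males (2.64% of all autosomal genes fell) and none changed in females (5.20% of all) at p 0.01. With the number as a fixed block 3 of the 23 differed (Rhbg, Slc13a3 and Slc1a4; median -0.23), and without the pups of number 40, 2 did (Slc13a3 and Slc1a4; median -0.20).

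Among 41 tested components of the Wnt pathway, Wnt2, Rspo3, Dab2 and Znrf3 differed with a more negative change in males and Smad3 with a more positive one. Of all autosomal genes 1.32% and 1.19% did. The median of the list was 0.05. Without the pups of number 40 Smad3 alone of these 5 genes differed. Wnt2, a ligand of the liver endothelium, lay between 5.75 and 6.91 (median 6.64) in m-LF, 5.26 and 6.10 (median 5.62) in m-WS, 5.25 and 7.02 (median 6.55) in f-LF and 5.95 and 6.76 (median 6.30) in f-WS; the male groups overlapped through m-LF6, the lowest m-LF pup. Its difference was -0.93 (SE 0.32, limma adjusted p = 0.386), and -0.80 (not past p 0.01) with the number as a fixed block. Rspo3, the R-spondin that strengthens Wnt signals, had -0.44 (SE 0.16, limma adjusted p = 0.393). Smad3, which carries TGF-beta and activin signals, was at 7.45 to 7.81 (median 7.66) in m-LF and at 7.90 to 7.99 (median 7.95) in m-WS, and at 7.60 to 7.96 and 7.65 to 8.02 in f-LF and f-WS. The m-WS pups lay above all m-LF pups, and the females overlapped. Its difference was 0.32 (SE 0.09, limma adjusted p = 0.355). Periportal and urea cycle genes leaned to the other side. Of 18 tested, 14 were above 0 with a median of 0.15, whereas 52.6% of all autosomal genes were below 0. The 1 gene of them that differed was Gldc of the glycine cleavage system (0.26, SE 0.09, limma adjusted p = 0.393), and 2.51% of all autosomal genes differed. Gldc gave 0.13 (not past p 0.01) with the number as a fixed block. With that block the list had 9 of 18 genes below 0 and a median of 0.01.

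The endothelium, stellate and immune cell markers were checked beside these genes, since Wnt2 and Rspo3 come from vessel cells. Of 14 tested endothelial markers, 1 differed, Vwf, with -0.48 (SE 0.16, limma adjusted p = 0.377), and the median was 0.02. For all marker lists the share to set beside such counts is 2.51%, that of all autosomal genes. The summed intensity of the 15 endothelial markers on the array ranged from 8661 to 10768 in m-LF, from 7880 to 9829 in m-WS, from 8803 to 10961 in f-LF and from 9355 to 10045 in f-WS. Of the 14 tested stellate cell markers, Reln differed (-0.24), whereas 9 of the 14 were above 0 and the median was 0.05. Of the 13 Kupffer cell markers Cd163 differed (-0.54), with 12 of 13 below 0 (52.6% of all autosomal genes were) and a median of -0.12. None of Vwf (-0.36), Reln (-0.17) and Cd163 (-0.34) passed p 0.01 with the number as a fixed block. The endothelial marker Ednrb did pass with that block, more negative in males. It also differed in that direction without m-LF6 and m-WS1, as did Vwf. Of the 17 myeloid and 12 lymphocyte markers tested none differed, with medians of 0.18 and 0.20 and with 15 and 9 above 0. In males 4 of each list rose (3.02% of all autosomal genes rose), and in females none did. Elane and Mpo differed with the number as a fixed block, and Cd79a without m-LF6 and m-WS1, each more positive in males. The summed intensity of myeloid markers had medians of 1076 in m-LF, 1953 in m-WS, 1283 in f-LF and 1815 in f-WS. It ranged from 878 to 2558 in m-LF, 1299 to 2088 in m-WS, 1086 to 2444 in f-LF and 1013 to 2194 in f-WS. The groups overlapped in each sex. The part of cell composition in the differences of other genes was not tested.

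Further genes were chosen after their values were seen, by a size of at least 0.7, as were Rhbg and Afp. Among them were Esm1, Dll4, Angpt2 and Kcnj2, which stand for no list. Esm1, a proteoglycan of endothelial tip cells, was at 3.75 to 5.26 (median 4.01) in m-LF, 4.71 to 6.43 (median 5.56) in m-WS, 3.73 to 6.01 (median 4.38) in f-LF and 3.91 to 5.48 (median 4.26) in f-WS. Again m-LF6 was the highest m-LF pup. Its difference was 1.63 (SE 0.50, limma adjusted p = 0.366; 1.78, past p 0.01, without m-LF6 and m-WS1). Dll4, the Notch ligand of such cells, differed by 0.79 (SE 0.23, limma adjusted p = 0.366), Angpt2, a ligand of the Tie2 receptor, by 0.89 (SE 0.28, limma adjusted p = 0.366), and Kcnj2, a potassium channel, by 1.63 (SE 0.57, limma adjusted p = 0.391). The levels of Esm1 and Kcnj2 were low in most m-LF and f-WS pups, with Kcnj2 at 3.65 to 5.16 in m-LF and 3.96 to 5.33 in f-WS. Angpt2 (0.78) and Kcnj2 (1.68) did not pass p 0.01 with the number as a fixed block. In each of these genes the WSD pups of number 40 differed most between the sexes, by 1.89, 1.01, 0.97 and 2.11, against 0.20, 0.18, 0.00 and 0.21 in number 48. The other genes of that size were Gm11437 (0.95), Cyp4b1 (0.83) and Myo5c (0.74) with a more positive change in males, and Ocstamp (-0.89), Prok1 (-0.79), Ano1 (-0.76), Atp2b2 (-0.72) and Nxpe2 (-0.72) with a more negative one.

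Of 36 tested cell cycle genes, 33 were below 0 (52.6% of all autosomal genes were), with a median of -0.22 (-0.01 for all genes). At p 0.01, 3 differed, all more negative in males (1.32% of all autosomal genes did): Cdkn1c, Ccnd2 and Ccne1. Males had a median change of -0.09 and females of 0.09. Cdkn1c, an imprinted inhibitor of cell division and therefore not a gene of proliferation itself, was at 7.56 to 8.43 (median 7.86) in m-LF, 7.32 to 7.63 (median 7.49) in m-WS, 7.21 to 7.94 (median 7.69) in f-LF and 7.64 to 8.06 (median 7.97) in f-WS. Each m-WS pup was below each f-WS pup. The difference was -0.64 (SE 0.17, limma adjusted p = 0.316). The cyclins Ccne1 (-0.45, SE 0.15, limma adjusted p = 0.377) and Ccnd2 (-0.23, SE 0.08, limma adjusted p = 0.377) start the cycle. At p 0.05, 11 of 36 members passed, all more negative in males, as did 5.42% of all autosomal genes in that direction. Ccnd2 (-0.20) did not pass p 0.01 with the number as a fixed block. Under that block 5 members differed, all more negative in males: Aurka, Aurkb, Bub1, Ccne1 and Cdkn1c. The median of the list was then -0.25. Without the pups of number 40, 29 of 36 were below 0, with a median of -0.11, and Cdkn1c differed. Of the 20 tested foetal and imprinted genes, Cdkn1c, Igf2r and Afp differed with a more negative change in males and Zhx3 with a more positive one. The shares over all autosomal genes were 1.32% and 1.19%. Afp, the foetal albumin, had -1.24 (SE 0.45, limma adjusted p = 0.393). It lay at 9.32 to 11.97 (median 10.72) in m-LF, 8.64 to 9.73 (median 9.33) in m-WS, 9.32 to 11.25 (median 10.51) in f-LF and 9.42 to 10.70 (median 10.22) in f-WS.

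**Figure D2:**
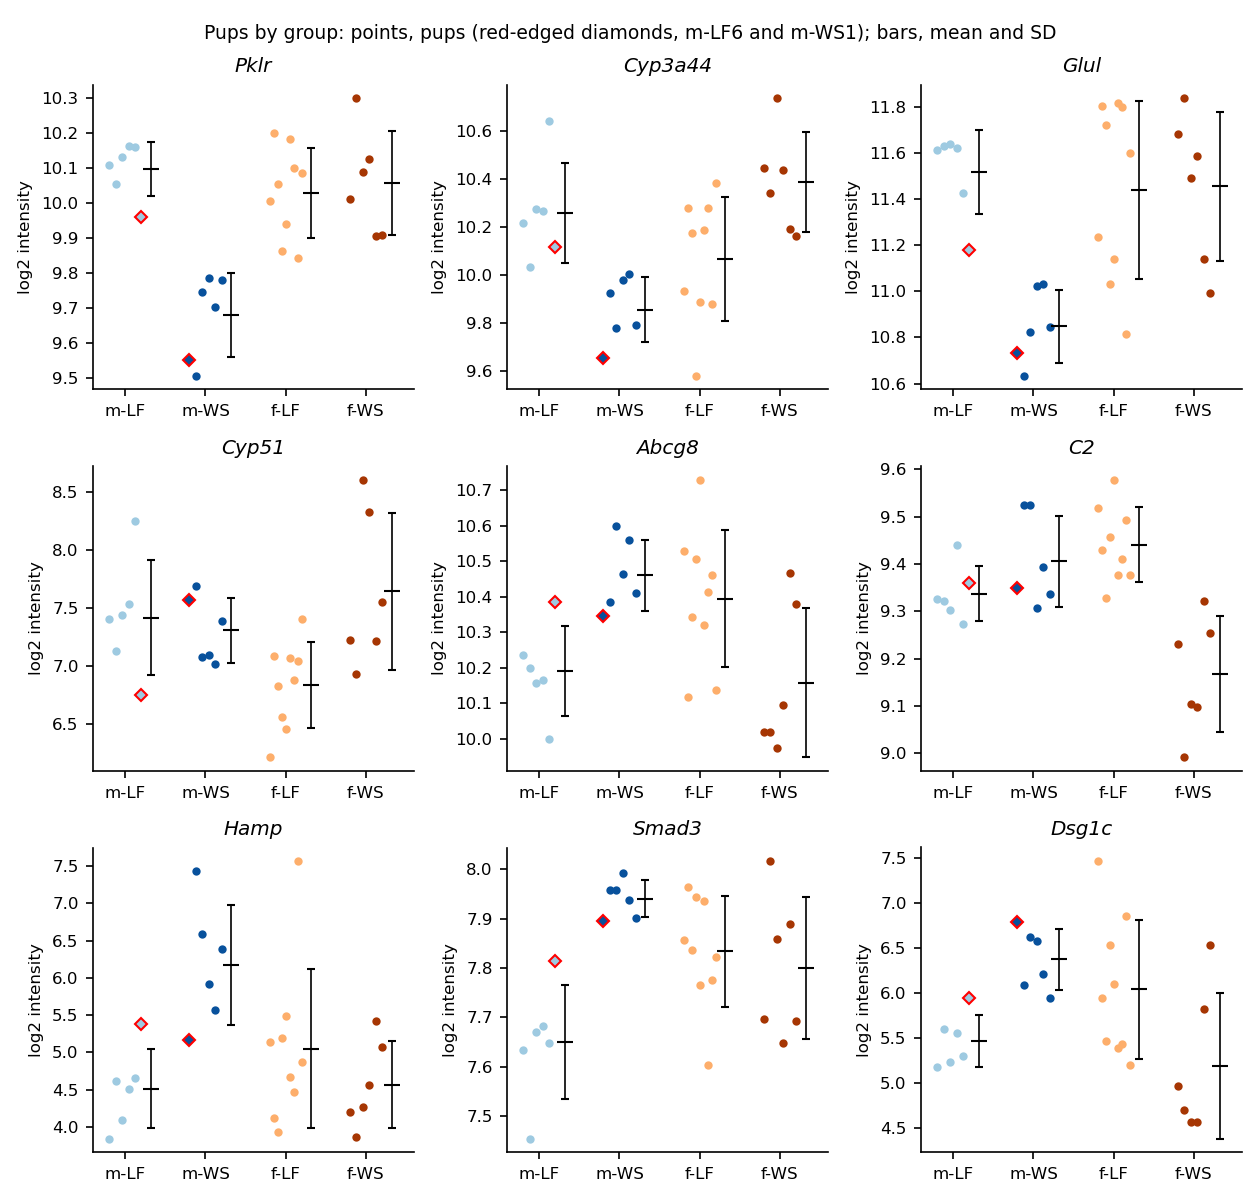
Log2 intensity of 9 genes in each pup by group (m-LF, m-WS, f-LF, f-WS), with the mean and SD beside the points; red-edged diamonds are m-LF6 and m-WS1, the males with an Xist signal. In Pklr, Cyp3a44 and Glul the 6 males of WSD dams lie below the males of LFD dams, in Smad3 above them, and in C2 the females of WSD dams lie below those of LFD dams.

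Among genes of iron, metals and immunity, Hamp had the largest estimate of all autosomal genes, 2.14 (SE 0.58, limma adjusted p = 0.355). It encodes hepcidin, the hormone that blocks iron export. Its log2 level was 3.84 to 5.38 (median 4.56) in m-LF, 5.16 to 7.43 (median 6.15) in m-WS, 3.93 to 7.56 (median 4.87) in f-LF and 3.87 to 5.42 (median 4.42) in f-WS. The level was low in most pups, the male groups overlapped through m-LF6 and m-WS1, and f-LF8 was the highest f-LF pup. Hamp rose by 1.66 in males and moved by -0.48 in females (SE 0.39). Without m-LF6 and m-WS1 the difference was 2.52 (past p 0.01). Tfrc, the transferrin receptor, which is also an erythroid marker, had -0.33 (SE 0.09, limma adjusted p = 0.361); of 8 tested erythroid markers it was the one that differed, whereas the other 7 were above 0 and the median of the list was 0.10.

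The metallothioneins Mt1 and Mt2 bind zinc and copper. Mt1 lay between 9.80 and 10.93 (median 10.13) in m-LF, 10.75 and 11.37 (median 11.09) in m-WS, 9.94 and 11.06 (median 10.60) in f-LF and 8.93 and 11.24 (median 10.11) in f-WS. Mt2 lay between 10.94 and 12.36 (median 11.38) in m-LF, 12.08 and 12.46 (median 12.27) in m-WS, 11.11 and 12.33 (median 11.92) in f-LF and 9.68 and 12.33 (median 11.28) in f-WS. The m-WS pups spread least, and the groups overlapped. The differences were 1.14 (SE 0.39, limma adjusted p = 0.386) and 1.25 (SE 0.44, limma adjusted p = 0.391); neither passed p 0.01 in males or in females alone, with changes of 0.78 and -0.36 for Mt1 and of 0.72 and -0.53 for Mt2. The bases before their starts, RefSeq on GRCm38.p6, plus strand, at chr8:94178839-94179088 and chr8:94172368-94172617, are shown with the metal response core, TGCACNC or TGCGCNC on either strand, in capitals.
Mt1: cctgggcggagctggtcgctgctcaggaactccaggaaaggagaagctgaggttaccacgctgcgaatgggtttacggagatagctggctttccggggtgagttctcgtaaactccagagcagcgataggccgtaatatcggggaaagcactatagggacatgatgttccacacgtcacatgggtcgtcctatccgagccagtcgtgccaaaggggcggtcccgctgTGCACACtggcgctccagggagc
Mt2: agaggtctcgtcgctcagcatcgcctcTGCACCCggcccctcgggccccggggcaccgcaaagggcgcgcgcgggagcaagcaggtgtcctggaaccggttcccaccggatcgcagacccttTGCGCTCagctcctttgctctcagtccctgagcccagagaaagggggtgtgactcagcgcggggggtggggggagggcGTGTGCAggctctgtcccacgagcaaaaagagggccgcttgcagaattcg
Mt1 has 1 match and Mt2 has 3 in these 250 bases, and 21.4% of all windows held at least 1 and 1.26% at least 3. For each gene the start listed first was used. Bases after that start or before any other start were not searched, so the matches are not a count for the whole promoter. Both genes were on the list of 20 tested acute phase proteins, where they alone differed. Among all autosomal genes 1.19% differed with a more positive change in males. Saa2 had 0.35 (limma adjusted p = 0.813) and Orm1 0.14 (limma adjusted p = 0.957).

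C2 is a component of the classical complement pathway. It was the single gene of 23 tested complement and coagulation genes that differed (2.51% of all autosomal genes did). It lay between 9.27 and 9.44 (median 9.32) in m-LF, 9.31 and 9.52 (median 9.37) in m-WS, 9.33 and 9.58 (median 9.43) in f-LF and 8.99 and 9.32 (median 9.17) in f-WS. The females of WSD dams lay below those of LFD dams with no overlap. C2 fell by 0.27 in females and moved by 0.07 in males (limma adjusted p = 0.618), a difference of 0.34 (SE 0.07, limma adjusted p = 0.182; fixed block 0.30, past p 0.01). Lacc1, an enzyme of purine metabolism in macrophages, had a difference of -0.52 (SE 0.11, limma adjusted p = 0.182). It was at 7.95 to 8.37 (median 8.04) in m-LF, 7.63 to 8.05 (median 7.85) in m-WS, 7.65 to 8.06 (median 7.81) in f-LF and 7.92 to 8.22 (median 8.15) in f-WS, with overlap in each sex. On LFD the males were higher by 0.27 (limma adjusted p = 0.537), and on WSD they were lower by 0.26 (a male minus female difference of -0.26, limma adjusted p = 0.225). Interferon response genes (34 tested) had no gene that differed, and 2.51% of all autosomal genes did. With the number as a fixed block Gbp7 and Mx2 of this list differed, both more negative in males.

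Besides Cyp3a44, Lacc1 and Abcg8, the genes that changed at p 0.01 in both sexes in opposite directions were Mrgpre, Dsg1c, Paqr9 and Tmem64. The orphan receptor Mrgpre had 4.98 to 5.45 (median 5.11) in m-LF, 5.22 to 5.56 (median 5.42) in m-WS, 5.37 to 5.70 (median 5.42) in f-LF and 4.82 to 5.49 (median 5.24) in f-WS, a low level throughout, and a difference of 0.56 (SE 0.13, limma adjusted p = 0.237). The desmosomal cadherin Dsg1c was at 5.18 to 5.95 (median 5.43), 5.95 to 6.79 (median 6.39), 5.20 to 7.46 (median 5.94) and 4.56 to 6.53 (median 4.84) in m-LF, m-WS, f-LF and f-WS. Its difference was 1.75 (SE 0.44, limma adjusted p = 0.316), the second largest after Hamp among the 24 genes of smallest p. The keratin Krt23 (0.89, limma adjusted p = 0.366) differed in the same direction, whereas the junction protein Jam2 (-0.77, limma adjusted p = 0.355) and Krt7 (-0.45, limma adjusted p = 0.391) differed in the other, of 27 tested junction and keratin genes with a median of 0.01. Over all autosomal genes 1.19% differed with a more positive and 1.32% with a more negative change in males. Paqr9, a membrane receptor, differed by -0.40 (limma adjusted p = 0.242) and Tmem64, a membrane protein, by -0.28 (limma adjusted p = 0.277).

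Of the 12 genes of smallest p with a more positive change in males, those not yet named were Mrpl23 of the mitochondrial ribosome (0.25), the signalling adaptor Traf4 (0.25), Clmn (0.32), the phosphodiesterase Pde4c (0.39), Pigl of GPI anchor synthesis (0.34) and the sorting protein Vps28 (0.20). Of the 12 with a more negative change, those were Pls1, an actin bundling protein (-0.32), the noncoding Snhg5 (-0.36), Ncald, a calcium sensor (-0.33), and Pdzk1 (-0.40), a scaffold protein of the HDL receptor. Of these, Pls1 was at 8.43 to 8.76 (median 8.70) in m-LF and at 8.26 to 8.44 (median 8.36) in m-WS, and at 8.52 to 8.79 and 8.56 to 8.74 in f-LF and f-WS. Its SE was 0.07 (limma adjusted p = 0.237; fixed block -0.32, past p 0.01). In males of WSD dams it was below all females, and the male groups touched through m-LF6 alone. Over the 24 genes, the males were apart by diet with no overlap in 6, the females in 3, and the sexes on WSD in 6.

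Of the pathway lists not yet described, no member differed among 25 genes of the TCA cycle and oxidative phosphorylation, 35 immediate-early and stress genes and 27 genes of growth hormone and insulin signalling, with medians of 0.03, 0.08 and -0.02. In lists of this size 0 is near the share of all autosomal genes, 2.51%. With the number as a fixed block Klf10 of the stress list differed, more negative in males. Under that block Igfbp3 and Pik3r1 of the growth hormone list differed, 1 in each direction. Of 15 clock genes, Tef differed (0.28, limma adjusted p = 0.366). Of 26 genes of fatty acid synthesis, the triglyceride lipase Pnpla2 (0.18) and the desaturase Fads1 (-0.19) differed, with a median of -0.06, and of 20 genes of fatty acid oxidation Acot3 and Acot4 did (median -0.10). Of the drug metabolism list (44 tested), Cyp2b10, Cyp3a44 and Cyp3a16 differed. Of the 7 cholangiocyte markers Krt7 differed. Pancreas, fat, gut and muscle markers had 2, 3, 7 and 6 tested members, and none differed.

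**Figure D3:**
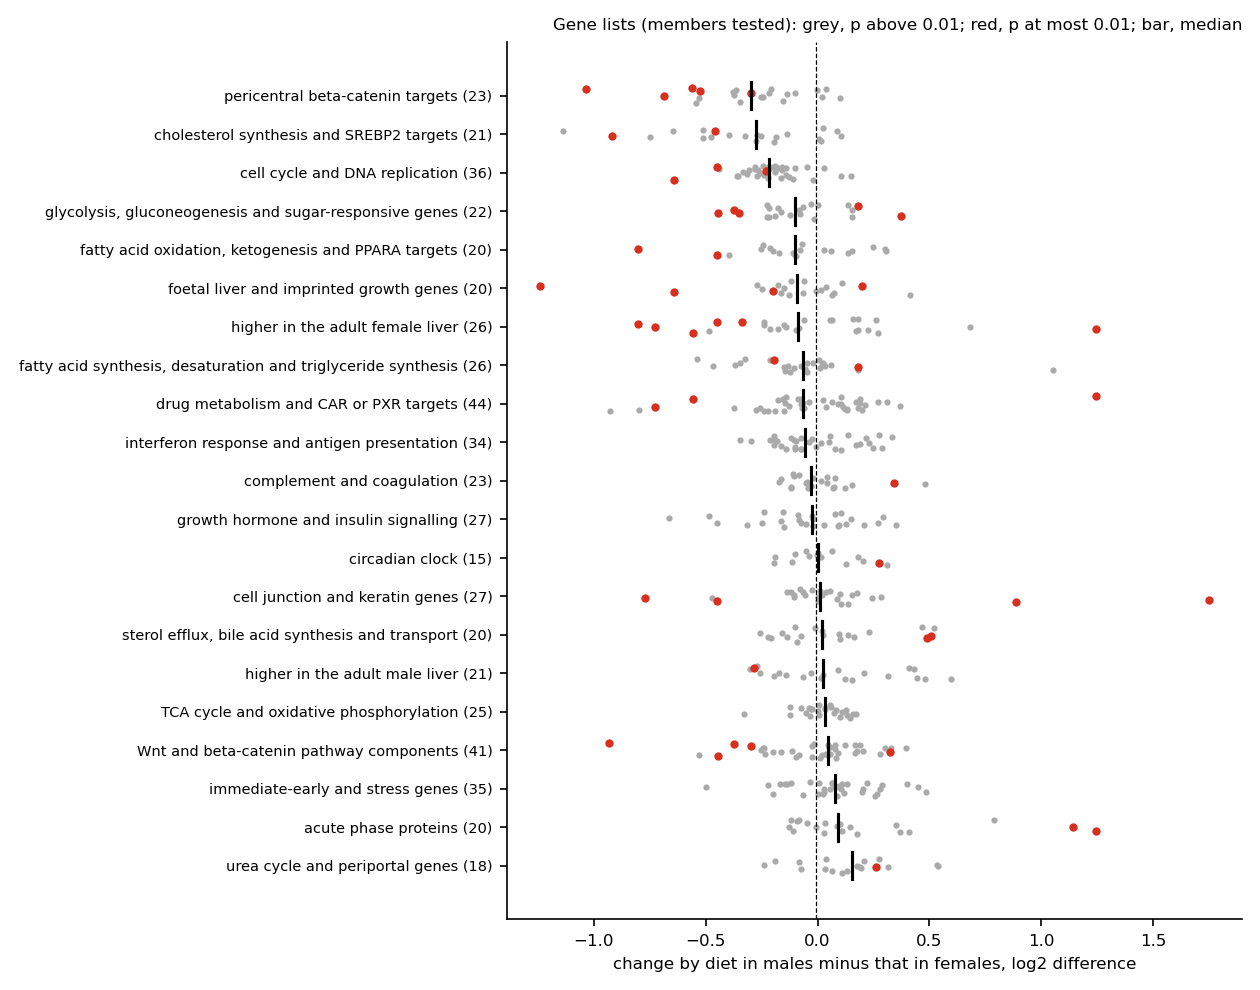
Difference in response (males minus females, log2) of the tested members of each pathway list, 1 point per gene, with the list's median as a bar and the median of all autosomal genes dashed; red points differed at p 0.01. Among the 21 pathway lists plotted, the medians lie lowest for pericentral targets (-0.30), cholesterol synthesis (-0.27) and cell cycle (-0.22) and highest for urea cycle and periportal genes (0.15).

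Within the numbers of the array names, males and females were compared directly: the difference of their means was taken in the LFD numbers 37, 49 and 50 and in the WSD numbers 40 and 48. In 245 of the 262 genes (93.5%) both WSD values lay on the same side of all 3 LFD values, as they did in 2583 of all autosomal genes (24.7%), so this separation is in large part a property of the selection and is given as a description. The size was uneven. In number 40 (2 males, 2 females) the male minus female difference was larger in size than in number 48 (4 males, 2 females) for 227 of the 262 genes (86.6%), with median sizes of 0.28 and 0.11. The same share over all autosomal genes was not taken, and a mean over fewer males spreads more in any gene. The sizes are measured from 0, not from the values of the LFD numbers. The LFD numbers had median sizes of 0.12, 0.14 and 0.13. Without number 40 the count of genes that differed was 99, and without number 48 it was 388. In Pls1 the 2 WSD values were close, -0.35 in number 40 and -0.26 in number 48, against 0.01 to 0.03 in the LFD numbers. In Cyp3a16 they were -0.59 and -0.47, in Mrpl23 0.33 and 0.25, and in Smad3 0.17 and 0.16. In Glul they were -0.85 and -0.14, and in Pklr -0.58 and -0.15. Mt1 and Mt2 had male minus female values of 0.89 and 0.98 in number 40 and of -0.09 and -0.01 in number 48. Cyp2b10 had 0.79 in number 40 and -0.35 in number 48, against -0.82 to -0.64 in the LFD numbers. Of the 70 named genes, 6 did not separate from the LFD numbers: Clmn (0.34 in number 40 and -0.02 in number 48), Pdk2 (0.28 and -0.13), Prok1 (-0.45 and 0.15), Mt2, Acot3 (-0.56 and -0.65) and Gldc (0.08 and 0.03).

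**Figure D4:**
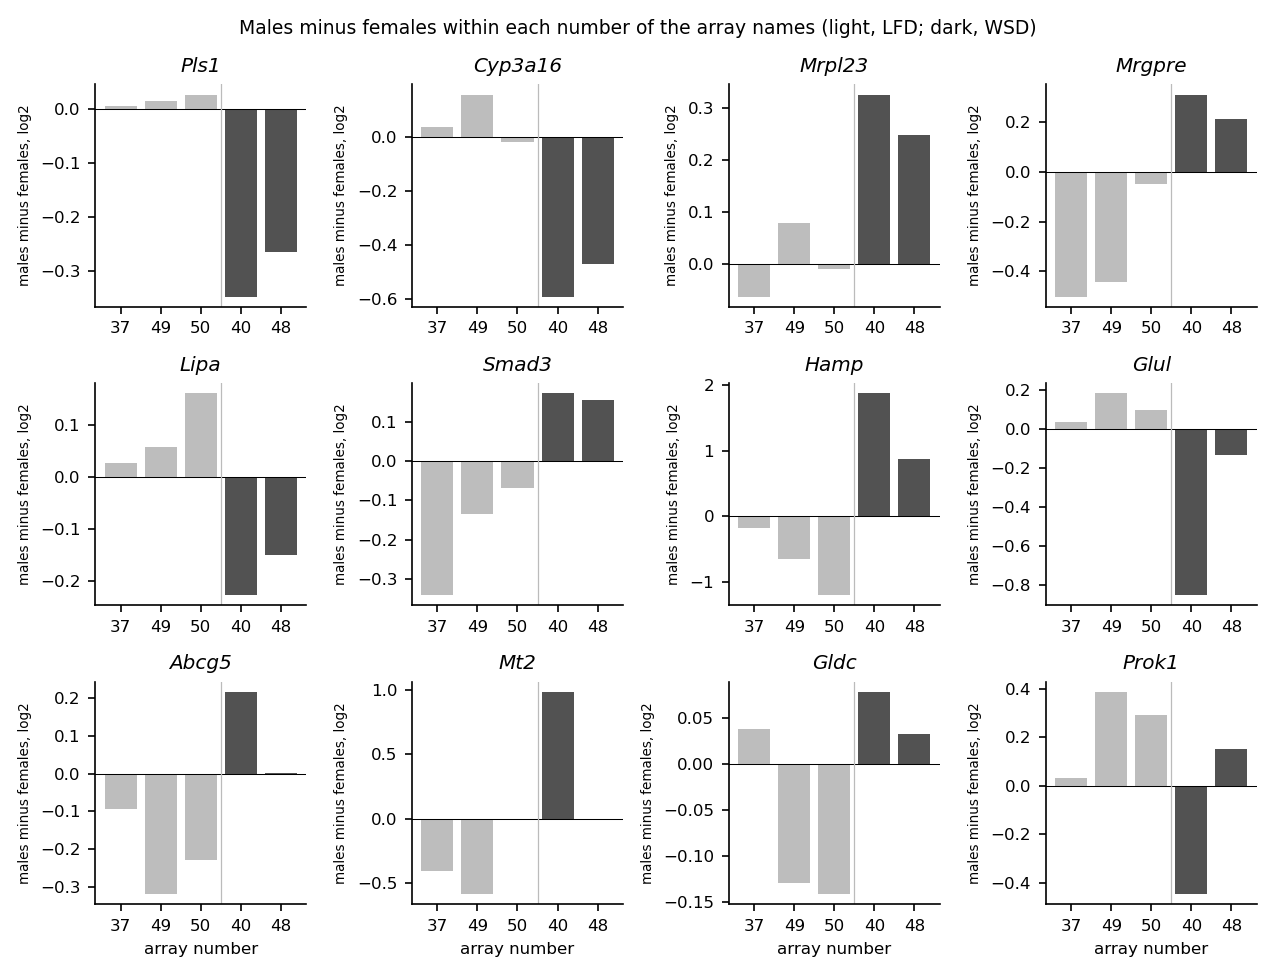
Mean of males minus mean of females (log2) within each number of the array names, for 12 genes, with the LFD numbers 37, 49 and 50 in light and the WSD numbers 40 and 48 in dark. In Pls1, Cyp3a16 and Smad3 the bars of both WSD numbers are alike, whereas in Glul, Mt2 and Abcg5 the bar of number 40 is the larger. In Glul and Abcg5 number 48 also lies apart from the LFD numbers, for Abcg5 at 0.00 against -0.32 to -0.09.

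Across settings, the 24 genes of smallest p kept their sign. With the number as a fixed block 27 of the 70 named genes did not pass p 0.01, none of them among these 24. Besides those given with their block value above, they were Pdk2, Prok1, Ano1, Ocstamp, Nxpe2, Gm11437, Cyp4b1, Pnpla2, Zhx3, Igf2r, Ugt2b38, Krt7, Mt2 (0.78) and Afp, and Arrdc4, Mlxipl, Rspo3 and Znrf3 did not pass either. Without m-LF6 and m-WS1, 4 did not pass: Pnpla2, Zhx3, Acot3 and Krt7, nor did Arrdc4. The fixed block, which uses the comparison within numbers alone, moved Abcg8 from 0.51 to 0.38 and Mrgpre from 0.56 to 0.61, and Dsg1c from 1.75 to 1.49. Under no block, the fixed block, the random block, the block by array prefix and without m-LF6 and m-WS1, 103 of the 262 genes differed each time, 53 more positive and 50 more negative in males.

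**Figure D5:**
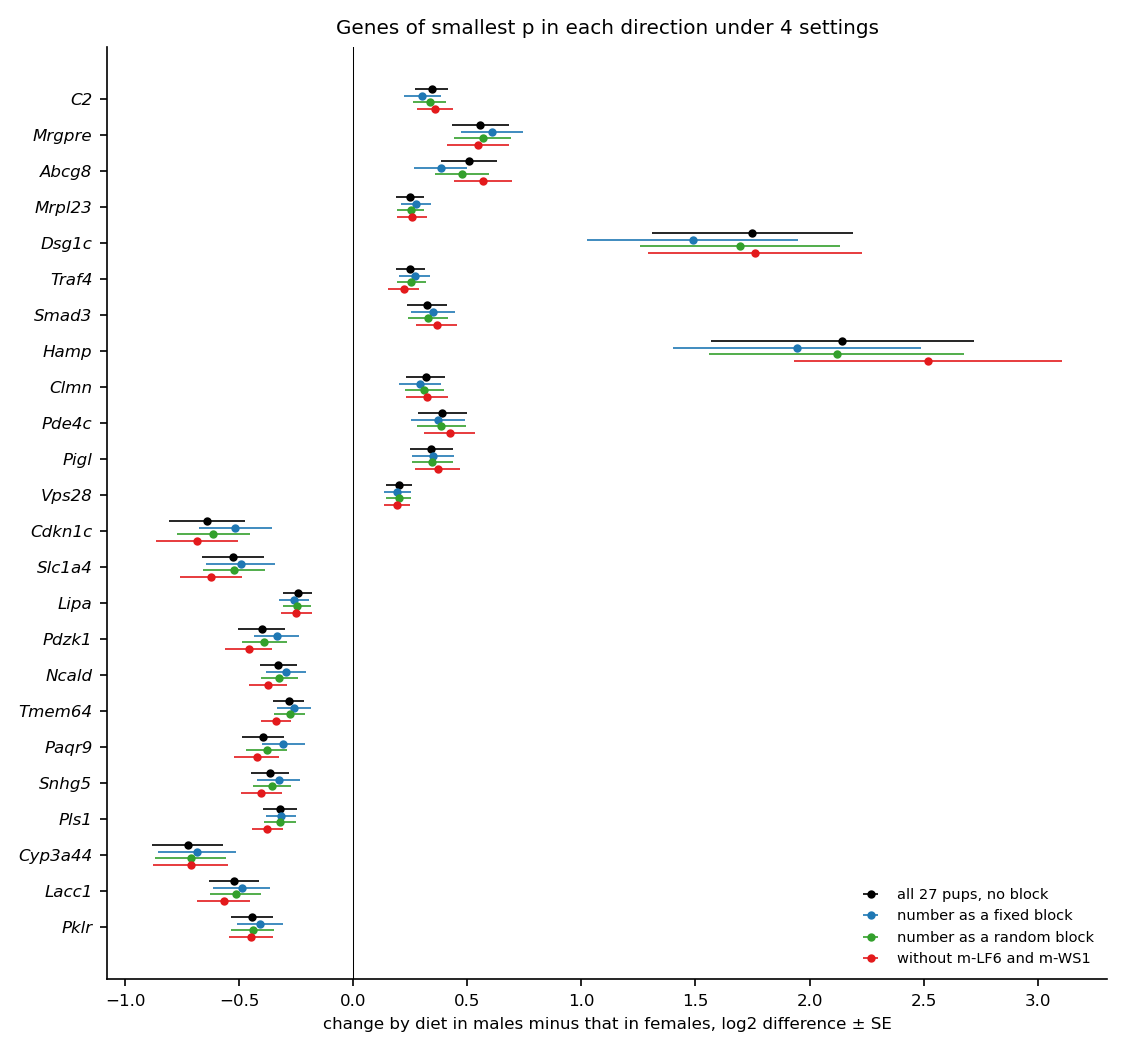
Difference in response (males minus females, log2, points) with its SE (lines) of the 24 genes of smallest p, 12 in each direction, with all pups and no block, with the number as a fixed or a random block, and without m-LF6 and m-WS1. All points keep their side of 0, and Hamp and Dsg1c have the widest lines.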

How the data were processed

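Liver RNA of 27 pups was measured on arrays, 1 array per pup. The authors normalized the arrays by RMA with quantile normalization, and the values as deposited are log2 intensities of 35556 probe sets (1.51 to 13.575, array medians 5.345 to 5.429). The array gives no count behind a value, so precision is limited by the number of arrays. The methods describe probe sets redefined by Entrez gene, whereas the table holds the manufacturer's probe sets. Of these, 21218 name 1 gene in the platform annotation, 1881 name several and 12457 none. Symbols were updated for 21185 and kept for 33. For the 1386 genes with several probe sets the one of highest mean was used. Following the methods, genes were dropped unless 4 or more arrays reached an intensity of 20 and unless their interquartile range on the log2 scale reached 0.1, which left 10810 of 18820 genes. A model of the 4 group means was fitted with limma 3.58.1 (R 4.3.3, eBayes with trend), without a block, and p-values were adjusted by Benjamini and Hochberg over all 10810 genes. The threshold was a p of 0.01, that of the methods. Scripts were tested on simulated data.

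The members and lists were chosen with earlier results of these data known. Named genes were the 12 of smallest p in each direction, up to 3 members of smallest p of each list, and all genes that passed in both sexes with opposite signs. The 14 genes of a size of at least 0.7, and the further list members that complete a count or stand beside one (Arrdc4, Mlxipl, Mlx, Rspo3, Znrf3, Lgr5, Sqle, Saa2 and Orm1), were chosen after their values were seen. Promoter sequences are RefSeq's on GRCm38.p6, and 201 of the 262 differing genes had one. Sequences were aligned with Biopython 1.88 under Python 3.11.15, and figures were drawn with matplotlib 3.10.9. Alternatives were filters, scaling, variance models, blocks by number, prefix and replicate, and leaving out pups, numbers or prefixes. Columns of the table without a mapped sample numbered 0.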

Additional observations from a re-analysis of the deposited data

Results flagged for a closer look

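In the 70 named genes, 22 of 280 groups of values held a pup that stood apart from the others of its group, where about 1 in 20 groups, or 14, would do so by chance. Of the 22, 7 were on m-LF6, 1 of the males with an Xist signal. On the log2 scale m-LF6 was low in Pls1 (8.43), Nxpe2 (9.15) and Wnt2 (5.75), in the direction of the m-WS pups, and high in Dll4 (7.19), Esm1 (5.26), Cyp2b10 (7.93) and Kcnj2 (5.16), again in that direction. The part of the Xist signal in these values was not tested.

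Among the other males, m-LF5 was high in Atp2b2 (6.90), Ocstamp (7.41) and Acot3 (7.94), m-LF1 was low in Clmn (8.35) and high in Pnpla2 (8.51), and m-WS2 was low in Acot4 (7.98). Among females of LFD dams, f-LF8 was high in Hamp (7.56) and low in Slc13a3 (10.98) and Ocstamp (5.46), f-LF6 was high in Tmem64 (9.74) and f-LF1 in Pde4c (6.63). Among females of WSD dams, f-WS2 was low in Pigl (6.45), f-WS5 in Ano1 (5.15) and f-WS1 in Pnpla2 (8.26), and f-WS6 was high in Kcnj2 (5.33).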

How the results depend on the processing

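No alternative reversed a named gene: over 70 genes and 53 settings, 3013 of 3702 values passed p 0.01, 689 kept their direction without passing, and Pklr, Cyp3a44 and Paqr9 passed in every setting. The count of 262 genes (124 more positive and 138 more negative in males) moved most with the pups included. Without number 40 it was 99 (34 and 65), without number 49 it was 154 (76 and 78), and without number 50 the more negative genes numbered 215. Without number 48 it was 388 (185 and 203), and 2 genes passed an adjusted p of 0.05, against 0 without any other number. Leaving out 1 pup gave 190 to 387 genes (84 to 179 more positive, 96 to 222 more negative, the highest total and 222 without m-LF6), and 0 at an adjusted p of 0.05. Averaging arrays of the same number and sex gave 96 (37 and 59), prefix G073 alone 88 (36 and 52) and prefix G074 alone 71 (29 and 42), each with fewer arrays. Without m-LF6 and m-WS1 the more negative genes numbered 216. Chosen after seeing the data, the fixed block without these males gave 75 more positive genes and the random block 219 more negative ones. With no filter the more positive genes numbered 192. The cause of these shifts was not tested. Centring or repeated quantile normalization changed the more positive share of the differing genes from 47.3% to 55.4% and 56.4%. With a replicate block the count was 228 (117 and 111). The replicate numbers tie no pups together by any label. Between groups, 36 pairs of the same replicate number had a median correlation of deviations of 0.024 (-0.255 to 0.377), and 234 other pairs one of -0.008. For the number of the array names, 30 pairs that shared it had a median of 0.058 (-0.239 to 0.431), and 240 other pairs one of -0.013. The random block by that number had a correlation of 0.089.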

Other observations

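Probe sets that could not be given a single gene were tested in the same way. Of 940 that passed the filters and name several genes, 11 (1.17%) differed in response at p 0.01, with a smallest adjusted p of 0.544 in limma. Of 7667 with no gene, 82 (1.07%) did, with a smallest adjusted p of 0.188. On the X chromosome 8 of 338 tested genes (2.37%) differed, and on the Y chromosome 0 of 4. Over the 19 autosomes the share of differing genes ran from 0.714% to 3.87%.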
